A study of Homo sapiens with 5 samples.

Results

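The 28 genes described here encode enzymes of cholesterol and fatty acid synthesis together with the regulators that control their transcription. They were chosen by name, as a pathway, with earlier results of these data known. They are 28 of the 61220 genes that GENCODE v44 gives to the listed transcripts, of which 26426 had at least 1 read. All transcripts assigned to a member, 299 in all, were summed per gene. The RNA came from NCI-H1975 and HCC827, established human lines derived from lung adenocarcinoma, which were cultured separately in serum-containing medium to near confluency without any drug or genetic change named in the labels. By the labels, poly(A) RNA of NCI-H1975 carried the synthetic spike-in sequins mix A and that of HCC827 carried mix B. In the deposited counts, sequins made up 0.187% of reads in the pure NCI-H1975 library and had 0 reads in the pure HCC827 library. The cause of this difference was not tested. A single preparation of each line was used, and mixes by mass held 0, 25, 50, 75 and 100% HCC827 RNA. Libraries are named by their NCI-H1975 to HCC827 ratio, from 100:0 over 50:50 to 0:100, and each mix gave 1 PCR-amplified nanopore cDNA library, all run on 1 flow cell. Below, a gene that rose or fell did so towards HCC827, that is, from the 100:0 to the 0:100 library.

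Cells make cholesterol from acetyl-CoA through mevalonate, isoprenoid pyrophosphates, squalene and lanosterol, and they make fatty acids from the same acetyl-CoA. Transcription of both routes is driven by the sterol regulatory element-binding proteins (SREBPs), encoded by SREBF1 and SREBF2. The escort protein SCAP carries SREBPs from the endoplasmic reticulum to the Golgi, where they are cleaved, and INSIG proteins hold SCAP back when sterols are plentiful. SREBF1 products are best known for lipogenic genes, SREBF2 for sterol genes, and INSIG1 is itself an SREBP target.

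Promoters are shown for members whose results are described below, because SREBPs are known to act on such promoters together with the CCAAT-binding factor NF-Y and the GC-box factor Sp1. The windows come from RefSeq (GRCh38.p14) and run from 250 bases before to 50 bases after an annotated start, read 5′ to 3′ on the gene's strand. Capitals mark CCAAT on either strand, read as ATTGG on the reverse one, and an SREBP-type element, TCACNCCAC on either strand. SREBF2 is the only member, of those with a window, with a match to the SREBP-type letters. MVD, DHCR7 and INSIG1 stand for the genes that rose, and IDI1 and ELOVL6 for those that fell.
SREBF2, chr22:41832855-41833154, plus strand: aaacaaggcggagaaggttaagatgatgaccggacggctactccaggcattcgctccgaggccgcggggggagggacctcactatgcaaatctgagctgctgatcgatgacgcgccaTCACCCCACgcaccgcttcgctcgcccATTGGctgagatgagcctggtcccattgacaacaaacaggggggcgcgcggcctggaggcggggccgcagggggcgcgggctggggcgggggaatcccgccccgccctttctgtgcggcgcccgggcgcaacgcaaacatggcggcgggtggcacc
MVD, chr16:88663042-88663341, minus strand: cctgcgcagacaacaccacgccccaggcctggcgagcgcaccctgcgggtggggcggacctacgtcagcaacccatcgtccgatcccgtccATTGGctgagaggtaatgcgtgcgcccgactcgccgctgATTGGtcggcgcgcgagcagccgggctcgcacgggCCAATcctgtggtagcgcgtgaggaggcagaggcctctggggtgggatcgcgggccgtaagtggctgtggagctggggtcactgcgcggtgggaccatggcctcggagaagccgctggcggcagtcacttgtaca
DHCR7, chr11:71448344-71448643, minus strand: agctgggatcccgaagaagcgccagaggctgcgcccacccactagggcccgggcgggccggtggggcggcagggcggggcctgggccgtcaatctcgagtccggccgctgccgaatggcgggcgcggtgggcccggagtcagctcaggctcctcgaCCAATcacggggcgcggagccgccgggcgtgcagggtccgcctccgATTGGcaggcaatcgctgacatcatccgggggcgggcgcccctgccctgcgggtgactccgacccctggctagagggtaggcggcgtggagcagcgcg
INSIG1, chr7:155297628-155297927, plus strand: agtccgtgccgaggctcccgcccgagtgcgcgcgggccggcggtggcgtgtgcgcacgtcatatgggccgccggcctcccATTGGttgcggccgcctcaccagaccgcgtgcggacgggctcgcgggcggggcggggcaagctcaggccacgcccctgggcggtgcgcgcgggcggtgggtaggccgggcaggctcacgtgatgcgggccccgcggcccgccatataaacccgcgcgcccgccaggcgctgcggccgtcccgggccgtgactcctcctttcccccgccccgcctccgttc
IDI1, chr10:1048837-1049136, minus strand: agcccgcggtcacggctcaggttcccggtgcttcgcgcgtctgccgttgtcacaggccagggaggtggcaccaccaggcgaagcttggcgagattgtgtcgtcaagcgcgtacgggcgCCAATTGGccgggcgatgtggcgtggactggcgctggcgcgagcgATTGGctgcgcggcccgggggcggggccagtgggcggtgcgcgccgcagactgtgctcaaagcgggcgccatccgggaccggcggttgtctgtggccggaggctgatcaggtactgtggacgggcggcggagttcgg
ELOVL6, chr4:110198566-110198865, minus strand: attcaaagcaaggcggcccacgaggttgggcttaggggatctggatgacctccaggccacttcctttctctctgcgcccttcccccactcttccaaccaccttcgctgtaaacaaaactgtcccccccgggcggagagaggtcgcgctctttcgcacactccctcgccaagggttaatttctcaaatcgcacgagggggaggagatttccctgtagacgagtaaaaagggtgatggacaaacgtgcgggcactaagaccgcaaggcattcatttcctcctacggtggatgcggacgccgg

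The table held windows for 24 of the 28 members, 32 in all, and ACAT2, SQLE, FASN and FDFT1 are named only. CCAAT was present in at least 1 window of 19 of the 24 members (79.2%), against 39.7% of the 27305 genes in the table. By window, 71.9% of the 32 member promoters and 34.6% of all 35116 held it. MVD held 3 copies, DHCR7 2 in the window shown, INSIG1 1 and IDI1 3, of which 2 overlap on opposite strands, whereas ELOVL6 held none. The other members without it were CYP51A1, which fell, SREBF1, which rose, and PMVK and SCAP, which did not pass. The GC box GGGCGG, searched on both strands and not capitalised, was present in 23 of 24 members (95.8%) and in 48.3% of all genes. The SREBP-type letters were found in 1 of 24 members and 1.39% of all genes. Among members with a window, CCAAT was present in 10 of the 11 that rose, in 1 of the 3 that fell and in 8 of the 10 that did not pass. A match describes the letters of a window and does not identify a binding site or a cause.

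The libraries held 2932250 to 4058751 assigned reads, and the members together held 6573 to 9259 of them, from 0.224% of reads in the 100:0 library to 0.243% in the 0:100 library. All 6 epithelial markers examined (KRT7, KRT8, KRT18, KRT19, EPCAM and CDH1) were detected in every library. Their summed level was 5575 CPM, a count scaled to a common library size, in the 100:0 and 15794 CPM in the 0:100 library. The 4 blood markers had 0 reads in every library, each allowing up to 3 reads, and the 3 endothelial markers had few reads. The 4 fibroblast markers fell from 630 to 19 reads, nearly all from the collagen genes COL1A1 (532 to 19) and COL1A2 (96 to 0), and their part in the results was not tested. All levels, those of the markers included, are CPM after TMM scaling, which sets the libraries on the level of their middle genes. A slope is the fitted log2 change from 100:0 to 0:100 ± its standard error (SE). The adjusted p comes from edgeR's quasi-likelihood test over the 5 libraries with Benjamini-Hochberg adjustment over all 13492 genes tested. RNA was pooled from whole cultures, so fewer cells with a transcript and less of it per cell cannot be told apart.

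All 28 members passed the filter on low counts, and 17 of them (60.7%) had a slope past the threshold of 0.05, against 45.8% of all tested genes. Of these, 13 rose (46.4% of members, against 23.5% of all genes) and 4 fell (14.3%, against 22.3%). The median slope was 0.51 over members and -0.03 over all tested genes. Rising members were found from MVD in the mevalonate steps to DHCR7 at the end of the sterol route, and in fatty acid synthesis with FASN, ACACA and ACLY. The 4 that fell were IDI1, SQLE, CYP51A1 and ELOVL6. Under TMM scaling the summed level of all members was 1936, 2145, 2330, 2563 and 2798 CPM from 100:0 to 0:100, in the order of the mixture. The size of this rise depends on the scaling, since their unscaled share of reads went from 0.224% to 0.243%.

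**Figure D1:**
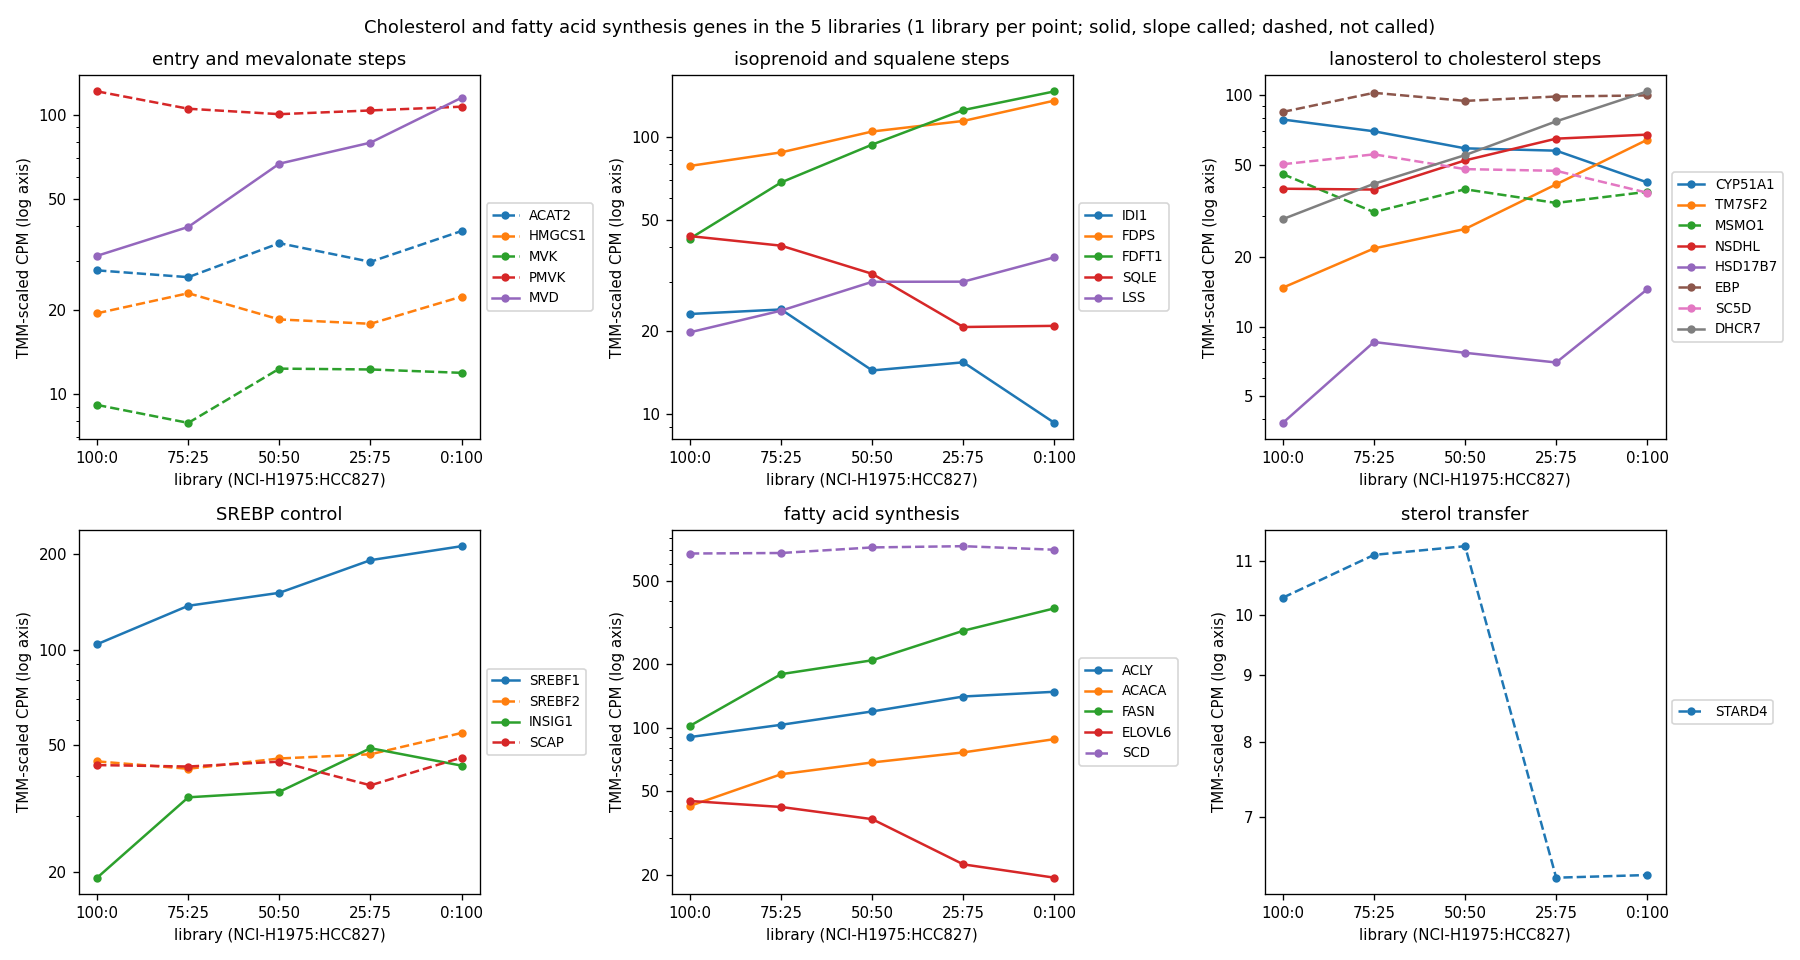
Level of each member (TMM-scaled CPM, log axis) in the 5 libraries ordered by mixing ratio, 1 library per point, with solid lines for members past the threshold and dashed lines for the others. MVD ran from 31.2 to 115 CPM, while SQLE, from 43.9 to 20.8 CPM, ran the other way.

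The entry and mevalonate steps build isopentenyl pyrophosphate from acetyl-CoA, and 1 of their 5 genes changed. MVD, the decarboxylase that makes isopentenyl pyrophosphate, stood at 31.2, 39.6, 66.7, 79.3 and 115 CPM from 100:0 to 0:100. Every step of that order was upward, and the slope was 1.90 ± 0.16 (adjusted p = 4.38e-06). The pure 0:100 library was 3.68-fold above the 100:0 library, with a 95% exact interval of 2.94 to 4.63 from the 2 read counts. Such intervals cover counting error only, since PCR copies could not be recognised. PMVK, the kinase just before MVD, stood at 121, 105, 100.3, 103 and 107 CPM, with a slope of -0.16 ± 0.14 (adjusted p = 0.351).

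ACAT2, which joins 2 acetyl-CoA molecules, had a slope of 0.46 ± 0.22 (adjusted p = 0.102). HMGCS1, the synthase that makes HMG-CoA, lay between 17.8 and 22.9 CPM with no order along the series, and its slope was -0.0035 ± 0.26 (adjusted p = 0.993). The slope of HMGCS1 took the other sign under several alternatives, among them RLE size factors. MVK, mevalonate kinase, had only 31 to 48 reads per library, and its slope of 0.57 ± 0.35 (adjusted p = 0.206) had an SE too wide to separate no change from a 2-fold one. ACAT2 overlaps the more highly read SOD2 and TCP1 on the opposite strand and MVK overlaps MMAB. Since use of strand in the authors' counting is not given in the sources used here, their reads may be mixed with those of the neighbours.

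All 5 genes between isopentenyl pyrophosphate and lanosterol changed, 3 of them rising and 2 falling. FDFT1, which makes squalene from farnesyl pyrophosphate, rose through 43.0, 68.6, 93.9, 125 and 146 CPM. Its slope was 1.71 ± 0.16 (adjusted p = 6.28e-06), a ratio of 3.40 (2.80 to 4.14) between the pure libraries. FDPS, the farnesyl pyrophosphate synthase, stood at 78.7, 88.0, 105, 114 and 135 CPM with a slope of 0.78 ± 0.13 (adjusted p = 2.85e-04). LSS, which closes squalene epoxide into lanosterol, stood at 19.7, 23.6, 30.03, 30.06 and 36.8 CPM with a slope of 0.85 ± 0.21 (adjusted p = 0.00567). Both FDPS and LSS increased at each step, although the 50:50 and 25:75 values of LSS were nearly equal. The call on LSS was lost under scaling by library totals alone, at 0.44 with adjusted p = 0.0967.

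Falling genes stood in the same segment. SQLE, squalene epoxidase, a rate-limiting enzyme of the route, stood at 43.9, 40.5, 32.1, 20.6 and 20.8 CPM. At 50:50 it lay 51.2% of the way from the 100:0 to the 0:100 level, and the 25:75 and 0:100 libraries were nearly equal. The slope was -1.24 ± 0.22 (adjusted p = 5.81e-04), and the level was 2.11-fold lower (1.54 to 2.92) in 0:100 than in 100:0. IDI1, the isomerase that supplies dimethylallyl pyrophosphate, stood at 23.0, 23.9, 14.4, 15.4 and 9.30 CPM. The slope of IDI1 was -1.25 ± 0.31 (adjusted p = 0.00491) and its level was 2.47-fold lower (1.56 to 4.05). Without the 0:100 library, where IDI1 had 25 reads, its slope of -1.02 did not pass (adjusted p = 0.0683). SQLE ran opposite to FDFT1, the enzyme just before it, and to LSS, the enzyme just after it.

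**Figure D2:**
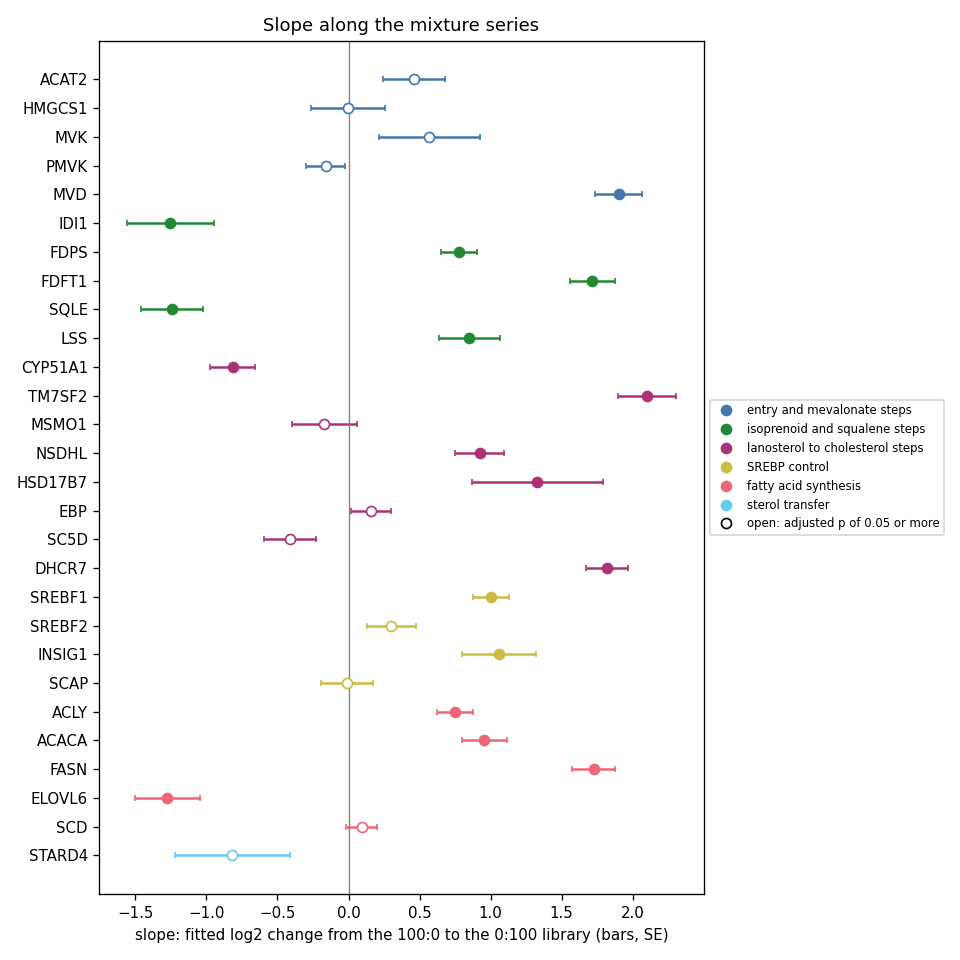
Slope along the series for each member (log2 change from 100:0 to 0:100; bars are ± SE from the edgeR fit over 5 libraries), coloured by role, with open symbols for members that did not pass. TM7SF2 at 2.10 and ELOVL6 at -1.28 mark the ends of the range.

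In the 8 genes from lanosterol to cholesterol, 4 rose, 1 fell and 3 did not pass. TM7SF2, a sterol C14-reductase, stood at 14.7, 21.8, 26.4, 41.2 and 64.3 CPM, and DHCR7, which makes cholesterol from 7-dehydrocholesterol, stood at 29.2, 41.5, 55.2, 77.2 and 104 CPM. Both rose at every step. The slopes were 2.10 ± 0.21 for TM7SF2 (adjusted p = 8.58e-06) and 1.82 ± 0.15 for DHCR7 (adjusted p = 3.82e-06), with ratios between the pure libraries of 4.37 (3.17 to 6.11) and 3.57 (2.83 to 4.54). TM7SF2 overlaps VPS51 on the same strand, which had 1737 reads against 538 for TM7SF2.

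NSDHL, which acts in removing the C4 methyl groups, stood at 39.5, 39.1, 52.4, 65.0 and 67.7 CPM, with a slope of 0.92 ± 0.17 (adjusted p = 9.06e-04). Its first 2 libraries were level, and the other 3 stood above them. HSD17B7, the sterol 3-ketoreductase of the same complex, stood at 3.83, 8.57, 7.70, 6.99 and 14.5 CPM, with 13 to 39 reads per library. Its slope of 1.33 ± 0.46 passed (adjusted p = 0.0314), but the inner libraries were in no order. The call on HSD17B7 was lost without the 100:0 library (0.92, adjusted p = 0.193), without the 0:100 library (0.76, adjusted p = 0.433), under library totals alone (0.93, adjusted p = 0.109) and in DESeq2 (adjusted p = 0.0722). Only 5.04% of its reads were on protein-coding transcripts, and a near copy, HSD17B7P2, held 51 reads against 139, so its level is uncertain.

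CYP51A1, the lanosterol demethylase that opens this segment, fell through 78.7, 70.0, 59.0, 57.7 and 42.0 CPM. Its slope was -0.82 ± 0.16 (adjusted p = 0.00112), and the level was 1.87-fold lower (1.497 to 2.35) in the 0:100 library. CYP51A1 overlaps AKAP9, a gene on the opposite strand with 1682 reads. The remaining members did not pass. MSMO1, the C4-methyl oxidase, had a slope of -0.17 ± 0.23 (adjusted p = 0.566), EBP, a sterol isomerase, one of 0.16 ± 0.14 (adjusted p = 0.376), and SC5D, a sterol desaturase, one of -0.41 ± 0.18 (adjusted p = 0.0838). SC5D passed without the 100:0 library (-0.65, adjusted p = 0.0414) and where 10 reads were required in every library (-0.46, adjusted p = 0.0469).

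Of the 4 genes of SREBP control, SREBF1 and INSIG1 rose while SREBF2 and SCAP did not pass. SREBF1 stood at 104, 137, 151, 191 and 212 CPM, a rise at each step. Its slope was 1.00 ± 0.12 (adjusted p = 4.27e-05), and the ratio between the pure libraries was 2.03 (1.78 to 2.33). INSIG1 stood at 19.1, 34.3, 35.7, 48.9 and 43.1 CPM, lowest in the pure NCI-H1975 library and highest at 25:75. The slope of INSIG1 was 1.06 ± 0.26 (adjusted p = 0.00507), and without the 100:0 library it was 0.60 and did not pass (adjusted p = 0.0923).

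SREBF2, the regulator most tied to sterol genes, stood at 44.5, 42.2, 45.4, 46.8 and 54.7 CPM. Its slope was 0.30 ± 0.17 (adjusted p = 0.166), and the ratio of 1.23 had an interval of 0.972 to 1.55. SCAP stood at 43.3, 42.9, 44.4, 37.4 and 45.7 CPM with a slope of -0.01 ± 0.18 (adjusted p = 0.965). The interval on its ratio of 1.06 was 0.824 to 1.35, which leaves differences of that size undetected at this depth. The slope of SREBF2 was -0.11 under library totals alone, and with the length trend over all genes removed it was 0.49 and passed (adjusted p = 0.0314). That of SCAP crossed 0 under RLE size factors.

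Fatty acid synthesis had 3 rising genes, 1 falling gene and 1 that did not pass. FASN, the fatty acid synthase that makes palmitate, stood at 102, 179.5, 209, 289 and 369 CPM. ACACA, the acetyl-CoA carboxylase that supplies its malonyl-CoA, stood at 42.4, 60.0, 68.3, 76.2 and 88.1 CPM. ACLY, which makes cytosolic acetyl-CoA from citrate, stood at 90.1, 103, 119, 140.5 and 148 CPM. All 3 genes, which act in succession, rose at every step. The slopes were 1.73 ± 0.15 for FASN (adjusted p = 4.78e-06), 0.95 ± 0.16 for ACACA (adjusted p = 3.55e-04) and 0.75 ± 0.12 for ACLY (adjusted p = 3.53e-04). Between the pure libraries the ratios were 3.62 (3.20 to 4.10), 2.08 (1.68 to 2.57) and 1.64 (1.41 to 1.91).

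ELOVL6, which lengthens palmitate to stearate, fell through 44.8, 41.9, 36.7, 22.4 and 19.3 CPM. Its slope was -1.28 ± 0.23 (adjusted p = 6.24e-04), with a level 2.32-fold lower (1.68 to 3.24) in the 0:100 library. SCD, the desaturase that makes oleate from stearate, stood at 672, 676, 719, 728 and 700.5 CPM. With 1884 to 2918 reads per library the ratio of SCD under TMM scaling was 1.04 (0.980 to 1.11, counting error only). Its slope was 0.09 ± 0.11 (adjusted p = 0.519), and its direction depended on the setting. Under library totals alone SCD passed downward at -0.32 (adjusted p = 0.0246), and it passed upward at 0.31 with the length trend removed (adjusted p = 0.0373) and at 0.30 with the GC and length trends removed (adjusted p = 0.0424). Of these 3 enzymes, which act in turn on the same acyl chain, FASN rose, ELOVL6 fell and SCD did not pass under TMM scaling. STARD4, a protein that moves sterol between membranes, had 17 to 48 reads per library and stood at 10.3, 11.1, 11.3, 6.29 and 6.32 CPM, with a slope of -0.82 ± 0.40 (adjusted p = 0.114).

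**Figure D3:**
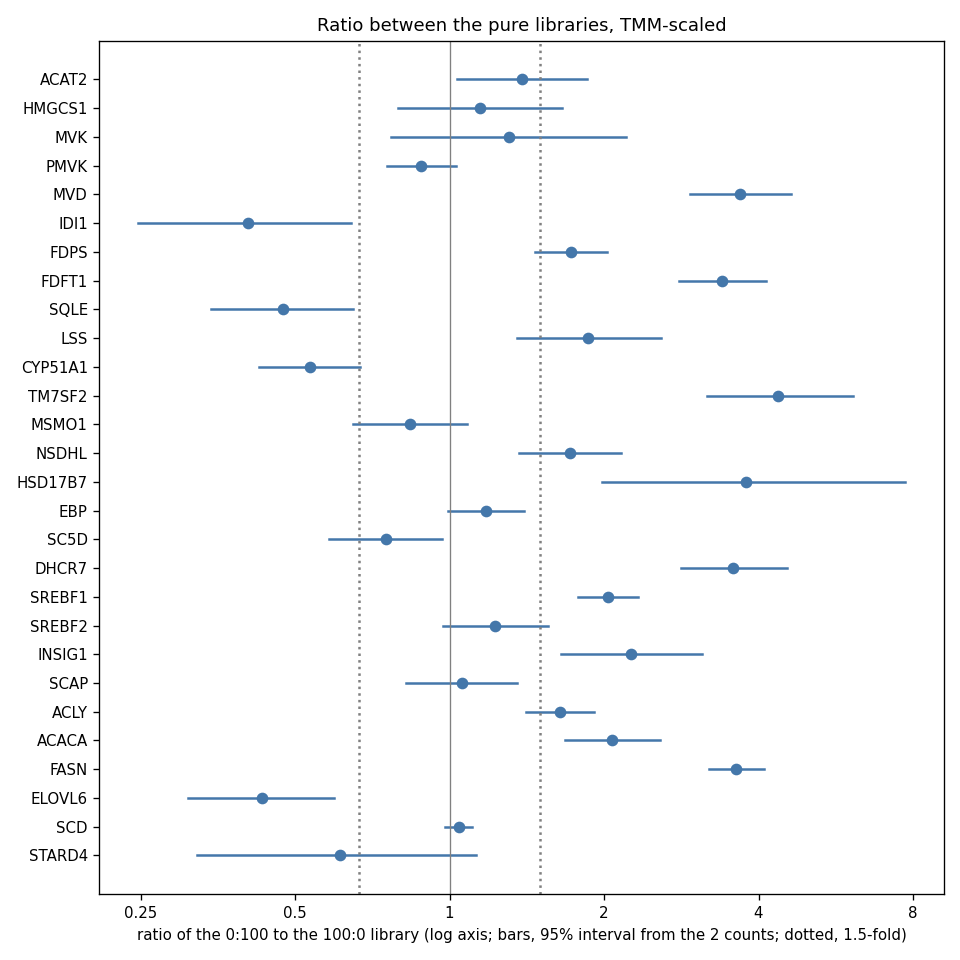
Ratio of the 0:100 to the 100:0 library for each member (log axis; bars are 95% exact intervals from the 2 read counts; dotted lines mark 1.5-fold). SCD, at 1.04, has the narrowest bar shown and HSD17B7, at 3.79, the widest.

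Between the pure libraries, 13 members were at least 1.5-fold higher in 0:100, the same 46.4% of members, against 27.4% of all tested genes. Another 5 were at least 1.5-fold lower (17.9%), against 29.4% of all genes. STARD4, at 1.63-fold lower (0.890 to 3.10), was counted here although its slope did not pass. Under library totals alone 8 members were 1.5-fold lower, against 44.5% of all genes, and under TMM 3 were 2-fold lower, against 18.4%. Values ran strictly in order over all 5 libraries in 12 members (42.9%), against 28.5% of all genes, and all 12 were among the 17 that passed. The 10 that ran upward were MVD, FDPS, FDFT1, LSS, TM7SF2, DHCR7, SREBF1, ACLY, ACACA and FASN, and the 2 that ran downward were CYP51A1 and ELOVL6.

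A mixture should place each gene between its pure levels, so the position of the inner libraries was read for the 18 members at least 1.5-fold apart. Their median position was 19.5% of the way from the 100:0 to the 0:100 level at 75:25, 45.8% at 50:50 and 71.9% at 25:75. Over the 7664 genes at least that far apart, the medians were 27.8, 47.3 and 70.2%. Estimated from the counts, the HCC827 share of reads was 32.7% at 75:25, 55.4% at 50:50 and 78.2% at 25:75. FDFT1 lay near the HCC827 mass fractions of 25, 50 and 75%, at 24.8, 49.4 and 79.6%. TM7SF2 lay lower, at 14.2, 23.6 and 53.5%. The farthest from the medians were STARD4, outside its pure levels at -20.3% in 75:25, and INSIG1, at 63.1, 68.9 and 124% in the 3 inner libraries.

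In the authors' estimated counts, reads of several members were assigned largely to transcripts not annotated as protein coding. For SREBF1, 33.8% of reads were on protein-coding transcripts, for MVD 33.2% and for TM7SF2 39.4%. In MVD, the retained-intron transcript MVD-209 held 64.9% of reads with a slope of 1.88, and the protein-coding MVD-201 held 32.7% with a slope of 1.87. In TM7SF2, the decay-annotated TM7SF2-216 (21.6% of reads) and TM7SF2-214 (21.0%) had slopes of 2.17 and 2.58, and the retained-intron TM7SF2-217 (17.5%) had 2.17. The coding TM7SF2-201 and TM7SF2-202, with 19.1% each, had slopes of 1.63 and 1.71. All these transcripts passed, so the estimated counts of coding and non-coding forms of MVD and TM7SF2 rose together. How well reads were divided between overlapping transcripts of a gene was not tested, so these forms may not be separate.

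SREBF1 was spread over 6 transcripts with at least 10% of its reads. The coding SREBF1-201 (19.0%) and SREBF1-202 (13.3%) had slopes of 1.02 and 0.98. The decay-annotated SREBF1-213 (22.7%) had a slope of 0.69 and SREBF1-204 (13.8%) one of 0.94, while the retained-intron SREBF1-224 (15.2%) and SREBF1-203 (13.1%) had 0.96 and 1.24. All 6 passed and rose. DHCR7-202 (50.4% of reads) and DHCR7-201 (48.2%) had slopes of 1.70 and 1.75. Among falling members, IDI1-203 and IDI1-201 shared nearly all reads with slopes of -1.26 and -1.23, SQLE-201 held 92.7% with -1.30, and ELOVL6-202 held 78.9% with -1.52, while ELOVL6-201 (18.2%) had -0.81 and did not pass (adjusted p = 0.152).

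Of 81 member transcripts tested, 36 rose (44.4%) and 6 fell (7.41%), against 17.5% and 16.1% of all 31758 transcripts. Fewer of them fell without the 0:100 library (3, against 8.36% of all transcripts) and more under library totals alone (14, against 27.1%). Isoform usage, the share of a gene's reads on each transcript, was tested along the series with diffSpliceDGE of edgeR in the 23 members with at least 2 testable transcripts. None passed, against 0.402% of all genes tested, and 1 member, ACLY, had an unadjusted p under 0.05 (adjusted p = 0.181). The gene-level F test of edgeR called ACLY (adjusted p = 0.0127), against 0.885% of all genes tested, with 2 members under 0.05 unadjusted. In ACLY, transcripts ACLY-207 and ACLY-201 rose with slopes of 0.86 and 0.90, while ACLY-202 and ACLY-204 had slopes of -0.75 and -1.23 that did not pass. With sums restricted to protein-coding transcripts, 27 members were tested, HSD17B7 being the one left out, and 16 of the 17 calls remained, against 45.5% of all genes called in that fit. The slope of TM7SF2 was then 1.74 and that of SREBF1 1.04.

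Base composition moved with the series. The read-weighted GC content of transcripts was 49.7, 49.8, 50.0, 50.2 and 50.6% from 100:0 to 0:100, and the mean transcript length of reads went from 2581 to 2180 bases. Over all tested genes the slope had a Spearman correlation of 0.31 with GC content, and over the 28 members one of 0.62, given as descriptions across genes of the same 5 libraries. Rising members had a median GC content of 53.6% and falling members 41.3%, against 54.6% and 43.9% for all rising and all falling genes. FASN (65.3%), MVD (64.2%) and TM7SF2 (62.7%) were GC-rich, and IDI1 (39.6%), CYP51A1 (41.1%) and ELOVL6 (41.5%) were GC-poor. FDFT1 (47.3%), which rose, and SQLE (46.1%), which fell, were close to each other.

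**Figure D4:**
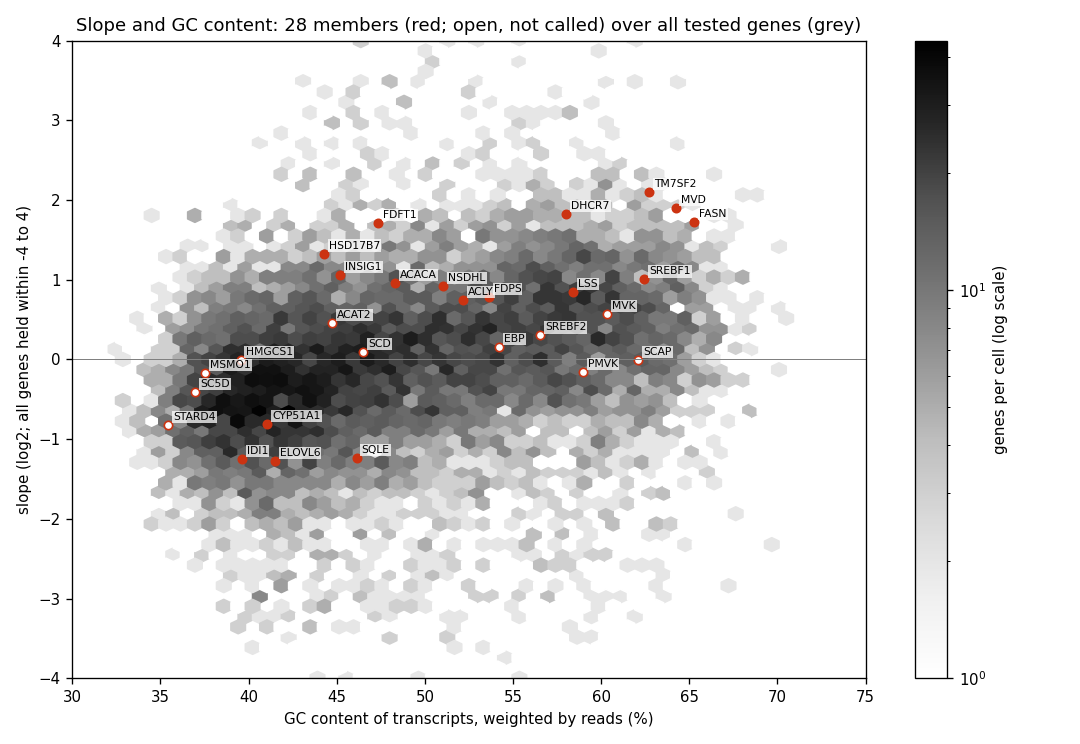
Slope (log2) against read-weighted transcript GC content (%) for the 28 members (red, open where not passing) over all 13492 tested genes (grey, darker with more genes on a log scale). FDFT1 and SQLE have GC contents of 47.3% and 46.1% with slopes of 1.71 and -1.24.

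With the GC trend over all genes removed, an alternative chosen after seeing the data, 13 members rose and 5 fell, against 19.9% and 19.7% of all genes. Of the 17 calls, 16 remained and none changed direction. LSS no longer passed (0.40, adjusted p = 0.157), while ACAT2 (0.63) rose and PMVK (-0.62) fell. The slope of SREBF1 was reduced to 0.53 (adjusted p = 0.0045) and that of CYP51A1 to -0.44 (adjusted p = 0.0407), whereas FDFT1 stood at 1.75, INSIG1 at 1.21, SQLE at -1.14 and FASN at 1.24. With the GC and length trends both removed, 14 members rose and 5 fell, against 19.6% and 19.2% of all genes. The part of GC content in the results was otherwise not tested.

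**Figure D5:**
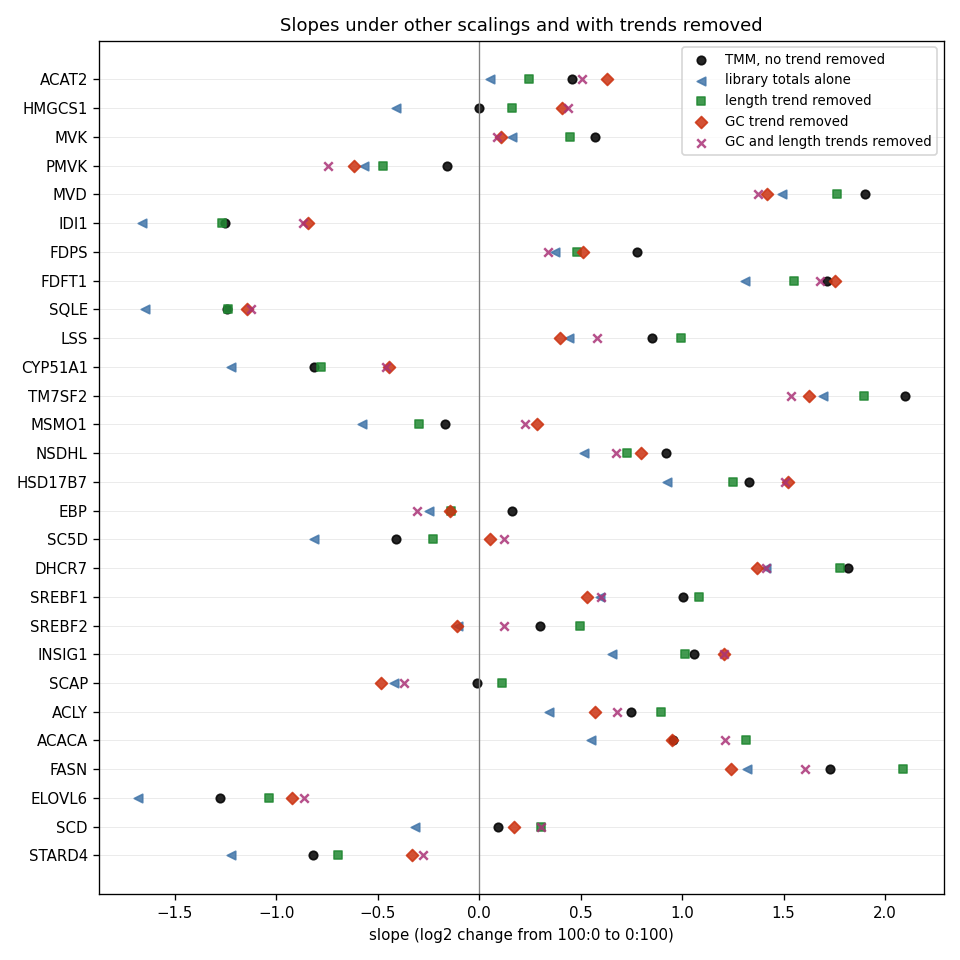
Slope of each member (log2) under TMM scaling and under 4 alternatives, with 1 symbol per setting. Library totals alone move every member to the left, and SREBF1 moves from 1.00 to 0.53 with the GC trend removed.

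Scaling by library totals moved the median slope of all genes from -0.03 to -0.44, so directions are relative to the middle of the genes. Under totals, 11 members rose and 8 fell, 19 in all, against 13.4%, 37.6% and 51.0% of all genes. Of the 17 calls, 15 remained, those on LSS and HSD17B7 being lost, and PMVK (-0.57), SC5D (-0.82), STARD4 (-1.22) and SCD (-0.32) were added as falling. With the length trend removed, 15 members rose and 5 fell, against 22.4% and 21.3% of all genes, PMVK (-0.47), SREBF2 and SCD being added. With the 100:0 and 75:25 libraries set against 25:75 and 0:100, 11 calls remained, against 17.3% of all genes called in that fit, 9 of them rising (9.32% of all genes) and 2 falling (7.97%). The calls on IDI1, LSS, CYP51A1, HSD17B7, INSIG1 and ACACA were lost. Without the 0:100 library, 3 members fell, against 13.6% of all genes. No member past the threshold changed sign under any of the 17 alternatives in which it was tested.

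A further 4 lists covered 59 related genes, of which 56 were tested. Of these, 13 rose (23.2%) and 12 fell (21.4%), shares close to the 23.5% and 22.3% of all tested genes. None of the 14 further genes of the sterol and isoprenoid routes and of SREBP regulation rose and 4 fell, with a median slope of -0.16. Among these, MBTPS2, the protease that makes the second cleavage of SREBPs, went from 21.2 to 8.55 CPM (slope -1.25 ± 0.29, adjusted p = 0.00343). GGPS1, which diverts farnesyl pyrophosphate to geranylgeranyl pyrophosphate, went from 37.4 to 15.2 CPM (slope -1.16 ± 0.24, adjusted p = 0.00181). SREBF1 and INSIG1 thus rose where MBTPS2 fell under TMM scaling. Transcripts of MBTPS2 were GC-poor (39.7%). With the GC trend removed, 10 of the further genes rose and 6 fell, against 19.9% and 19.7% of all genes. Whether MBTPS2 was among those 6 is not given here.

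Of 13 tested genes of sterol uptake, storage, transport and efflux, 3 rose and 4 fell, with a median slope of 0.19. ABCA1, which exports cholesterol, went from 47.1 to 12.3 CPM (slope -1.76 ± 0.24, adjusted p = 7.75e-05), and LIPA, the lysosomal lipase that frees cholesterol from its esters, from 65.99 to 26.4 CPM (slope -1.18 ± 0.20). GRAMD1A (1.32 ± 0.27) and STARD3 (0.83 ± 0.17), proteins of sterol transfer at membrane contacts, rose. Of 19 other genes of fatty acid synthesis, elongation and activation, 7 rose and 3 fell. Their median slope was -0.07, against -0.03 over all tested genes. SLC25A1, which exports the citrate used by ACLY, went from 58.0 to 144 CPM (slope 1.12 ± 0.17, adjusted p = 2.01e-04), and the elongase ELOVL7 rose by 1.13 ± 0.33. HSD17B12, the ketoreductase of elongation, and ACSL3, an acyl-CoA synthetase, fell, with slopes of -0.77 ± 0.20 and -0.68 ± 0.13. Of 10 tested genes of glycerolipid synthesis, 3 rose and 1 fell, with a median slope of 0.12. DGAT1 (1.07 ± 0.23) and AGPAT2 (0.78 ± 0.17), which acylate the glycerol backbone, rose, and CHPT1 (-1.21 ± 0.36), a choline phosphotransferase, fell. No list was tested as a set.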

How the data were processed

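Long-read cDNA was counted in 5 libraries. The authors deposited 1 table per library giving for each transcript its length and an estimated count, unscaled, as read from the deposited tables. Per the submitters' processing notes, minimap2 2.24, Salmon 1.9.0 and GRCh38 were used, with no roles stated. The annotation release and use of strand are not given in the sources used here. The 2 non-whole values were rounded, and 161 identifiers listed again were summed. Identifiers were joined to GENCODE v44 (GRCh38), which held 98.6% of human reads. The members and lists were chosen with earlier results of these data known.

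The slope on the HCC827 mass fraction was tested with the quasi-likelihood test of edgeR 4.0.16 (R 4.3.3) under TMM scaling. Genes with 10 or more reads in 2 or more libraries entered, and Benjamini-Hochberg adjusted p-values were read at 0.05. Each ratio had 1 library, all from a single RNA preparation per line, so p-values cover only the spread about the trend and not differences between cultures. A mixture is linear in expression and not in its logarithm. DESeq2 1.42.0 and limma 3.58.1 were alternatives. On simulated data the fit recovered 10 of 66 genes changed 1.5-fold, 31 of 66 changed 2-fold and 55 of 61 changed 4-fold. Of its 100 calls, 4 were false. Most 1.5-fold changes were thus missed there, and a member that did not pass is not shown to be unchanged. In that simulation a small share of the 13492 genes changed, as many up as down, with no GC or length trend. In the real libraries 45.8% of tested genes passed, so the simulated rates need not hold for them. All members are named. Full statistics were given for members past the threshold with slopes of at least 0.5 in size and for the SREBP genes. From each further list the text names up to 2 passing genes per direction with the largest slopes. Transcripts named hold at least 10% of a member's reads.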

Additional observations from a re-analysis of the deposited data

How the results depend on the processing

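The slopes of the 17 members past the threshold kept their direction under all 17 alternatives (HSD17B7 was not tested on protein-coding transcripts), of which removing the GC trend, alone or with the length trend, was chosen after seeing the data. No paired analysis was possible because each ratio had 1 library. Under library totals alone, 8 members fell, 7 of the further genes rose and 20 fell, against 13.4% of all genes rising and 37.6% falling. Under the same scaling 14 member transcripts fell (27.1% of all transcripts), 8 members were at least 1.5-fold lower in the 0:100 library (44.5% of all genes), and median positions were 22.6, 52.7 and 76.6%. With the 2 libraries rich in each line set 2 against 2, 11 members were called and 2 fell, while 3 further genes rose and 2 fell, against 9.32% of all genes rising and 7.97% falling. With the GC trend or both trends removed, 6 further genes fell, against 19.7% and 19.2% of all genes. Leaving out each library in turn, between 7 and 12 further genes and between 3 and 6 member transcripts fell, both lowest without the 0:100 library, where 13.6% of all genes and 8.36% of all transcripts fell. At 2-fold, 3 members were lower in 0:100, against 18.4% of all genes. The F test called isoform usage in 1 member, against 0.885% of genes. Slopes that changed sign all belonged to members that did not pass with the settings of the report. HMGCS1 stood at 0.0099 with RLE size factors, 0.021 in DESeq2, 0.0053 with the HCC827 share estimated from the counts, 0.0047 on protein-coding transcripts, and 0.16, 0.41 and 0.44 with the length, GC and both trends removed. SCAP stood at 0.0021 with RLE, 0.0040 in DESeq2 and 0.11 without the length trend. EBP stood at -0.25 under totals and at -0.14, -0.14 and -0.30 with the length, GC and both trends removed, and SREBF2 at -0.11 both under totals and without the GC trend. SCD stood at -0.32 under totals. MSMO1 stood at 0.28 and 0.23, and SC5D at 0.054 and 0.12, with the GC and both trends removed. Leaving out 1 library moved the slopes of HMGCS1 from -0.29 to 0.11, PMVK from -0.31 to 0.047, MSMO1 from -0.38 to 0.28, EBP from -0.022 to 0.24 and SCAP from -0.21 to 0.094. The causes of these changes were not tested. Depth limits MVK, HSD17B7, STARD4 and IDI1, which had few reads.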
